A study of Mus musculus with 4 samples.

Results

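The genes described here are the forkhead factor gene Foxj1, its upstream regulator Mcidas, the RFX factor genes and the gene families that encode the beating machinery of motile cilia. They were taken by symbol: Foxj1, Mcidas, and every symbol that starts with Dnah, Dnai, Dnaic, Dnaaf, Cfap, Rsph, Tekt, Drc or Rfx followed by a digit, which gave 78 of the 32592 rows of the table. Foxj1 was singled out because it was already known to be higher in one group of these libraries, so its values are a description with no test, and the question was whether the ciliary genes followed it. The other 77 were taken by name alone, but with earlier results of these data known.

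Poly(A) RNA was sequenced from 4 samples of CCE, a mouse embryonic stem cell line of strain 129/Sv, grown without feeder cells in medium with serum and leukemia inhibitory factor. The 2 samples labelled knockdown (KD) had received short hairpin RNAs (shRNAs) against Eif4a2, named sheIF4A2-2 and sheIF4A2-3, and the 2 samples labelled control (Con) had received shLuc and shEV. Which hairpin each sample received is not labelled. Samples of both groups went through 3 days of selection in 1 µg/mL puromycin and were collected on day 4.5. Values are given as signal, the authors' normalized counts (reads scaled to an effective library size), from which whole reads were recovered. The recovered totals were 10646302 and 12009899 reads in the KD-labelled libraries and 13681765 and 4604200 in the Con-labelled libraries, so control 2 was the shallowest. No label states whether replicates were separate cultures, so p-values reflect the spread among these 4 samples alone. That spread could be technical. As 2 constructs are named for each group, it could also hold differences between constructs, which was not tested. The targeted gene, Eif4a2, stood at 752.5 and 814 in the KD-labelled libraries and at 530.6 and 379 in the Con-labelled libraries, which goes against the label. Directions below are therefore those of the KD-labelled libraries relative to the Con-labelled libraries, and not those of a measured loss of Eif4a2. All 12 markers of embryonic stem cells were detected in every library, with a summed signal of 10372.8 and 9999.5 in the KD-labelled libraries and 13802.1 and 13155 in the Con-labelled libraries; 5 of the 12 fell and 0 rose, with a median log2 change of -0.39. Over all 14890 genes tested, 12.4% fell and 10.5% rose. The part of these 12 markers in the changes of the ciliary genes was not tested.

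Motile cilia beat by means of dynein arms, which pull neighbouring microtubule doublets of the axoneme past each other. Radial spokes and the nexin-dynein regulatory complex coordinate the arms, tektins and other inner proteins brace the doublets, and a set of cytoplasmic factors assembles the arms before they are carried into the cilium. FOXJ1 is the transcription factor that switches on this set of genes in the embryonic node, the airways, the oviduct and the ventricles of the brain, and RFX factors act with it by binding a DNA element named the X-box in the promoters of ciliary genes. Many axoneme genes are also used by the sperm flagellum.

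Foxj1 (ENSMUSG00000034227, chromosome 11, 116330704 to 116335399, minus strand of GRCm38 in GENCODE M21) had a signal of 34.9 and 39.6 in the KD-labelled libraries and 16.7 and 5.66 in the Con-labelled libraries. Both KD-labelled libraries were above both Con-labelled ones, and the controls differed from each other more than the KD libraries did. The mean was 37.3 ± 3.35 in KD and 11.2 ± 7.81 in Con (SD, n = 2 each), a ratio of 3.33. The log2 change, on the scale of log2(signal + 1), was 1.81, and it was 2.52 without control 1 and 1.11 without control 2. In bulk RNA such a difference cannot separate more cells with Foxj1 from more Foxj1 RNA per cell, and the same holds for every gene below.

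The ciliary genes did not move as one group with Foxj1. Of the other 77 members, 44 had enough reads to be tested with limma across all 14890 genes that passed the filter on low reads. At a Benjamini-Hochberg adjusted p below 0.05, 8 rose (Rfx4, Tekt2, Dnah10, Dnah2, Dnaaf3, Dnaic2, Dnaic1 and Rfx5), 4 fell (Dnah8, Rfx3, Rfx2 and Cfap36) and 32 did not pass. Among all genes tested, 10.5% rose and 12.4% fell; among these 44 members the shares were 18.2% and 9.09%. The median log2 change of the 44 was 0.10, against -0.01 over all genes tested, with 24 positive and 20 negative values. With the Rfx genes and Mcidas also left out, 38 members were tested. Of these, 6 rose (15.8%) and 2 fell (5.26%), with a median log2 change of 0.12. The KD-labelled libraries were both above the controls for 15 of the 44 and both below for 11, where the shares over all genes tested were 32.1% and 34.6%, so that 66.8% of all genes had groups that did not overlap. An exact permutation test of 2 libraries against 2 cannot go below 0.333, so each call rests on the variance shared across genes. In the authors' deposited table, 10 of the 77 rose and 4 fell at the same threshold, against 5.91% and 5.61% of all its 32592 genes. Those shares count 11658 genes with no read in any library, where 6 of the 77 had none, so the sets are not alike. All 12 calls given here are among those 10 and 4 with the same sign.

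**Figure D1:**
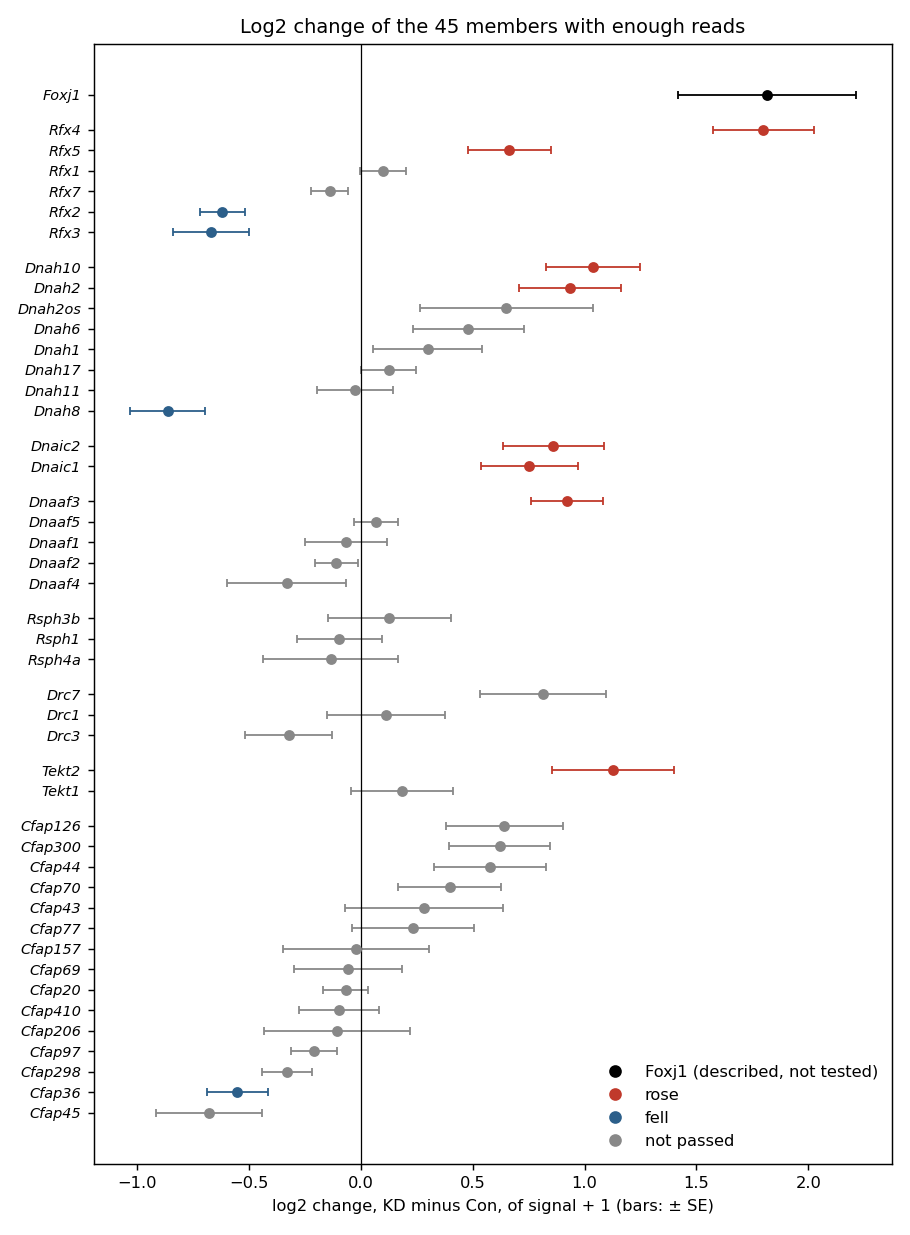
Log2 change (KD minus Con, of signal + 1) of Foxj1 and the other 44 members with enough reads, grouped by family, with bars of 1 SE from limma. Called members are red (rose) or blue (fell); the dynein arm genes lie on both sides of 0, from Dnah10 at 1.04 to Dnah8 at -0.86.

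The calls depended on which library was in the fit. When the fit left out KD library 1, 10 of the 12 calls were lost, and without KD library 2, 11 were; Rfx4 alone passed in both, with adjusted p values of 0.00669 and 0.0137 in limma. A fit without a KD library takes its spread from the 2 controls alone, and over all genes 3.3% rose and 4.39% fell without KD library 1, and 1.74% and 2.65% without KD library 2. Without control 1 or control 2 none of the 12 was lost, while 15 and 10 members rose, where 25.4% and 21.3% of all genes did, and 6 fell in each case, where 26.5% and 24.4% of all genes did. Processing alternatives also ended calls: Rfx5, Dnaic1, Dnaic2, Tekt2 and Rfx3 were lost with no filter on low counts, Rfx5, Dnaic2, Tekt2, Dnah2 and Cfap36 without a variance trend, and Dnaic1, Tekt2, Rfx3 and Cfap36 with DESeq2. Control 2 was below control 1 for 6 of the 8 members that rose (all but Dnaaf3 and Dnah10) and for Foxj1, and for 67.5% of all genes that rose.

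**Figure D2:**
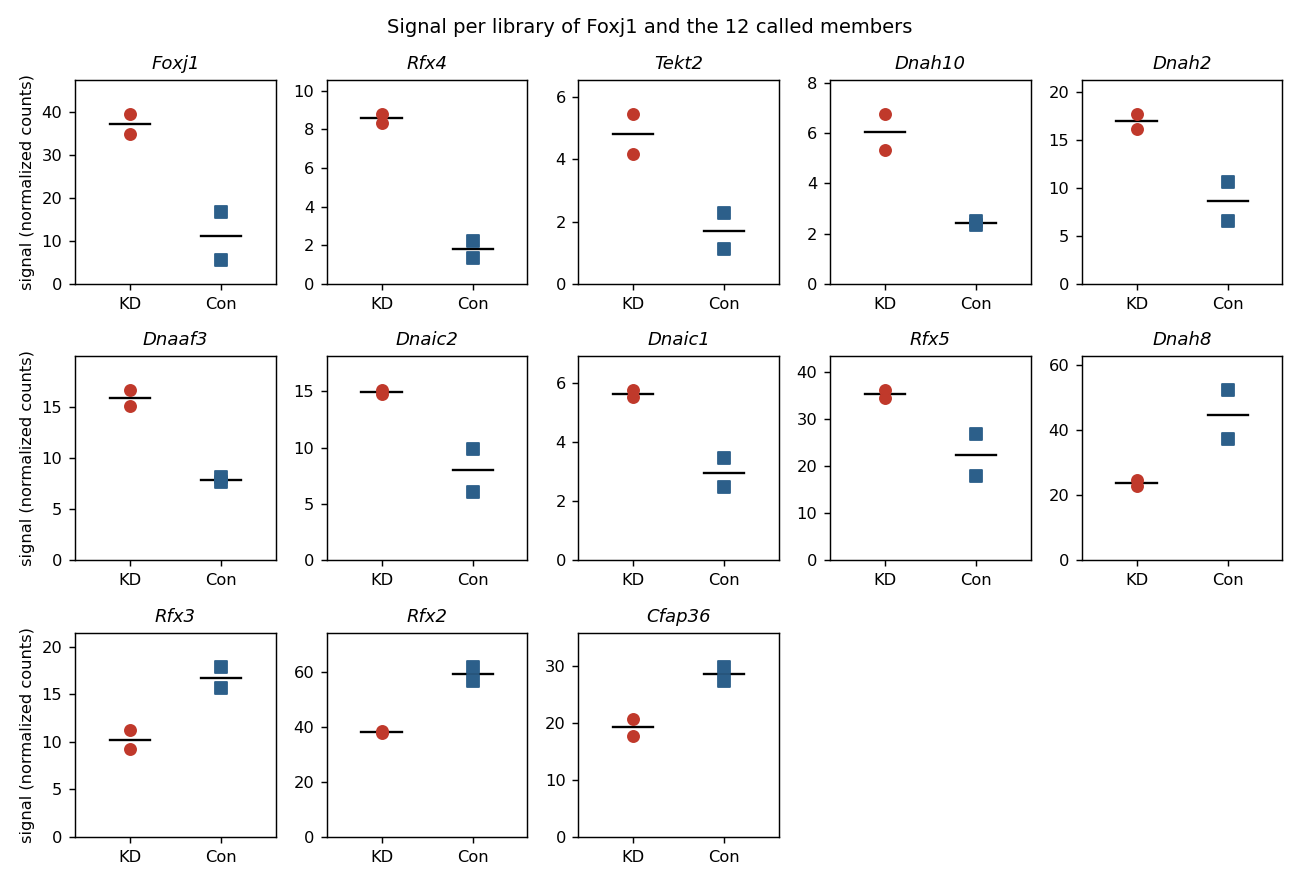
Signal (normalized counts) in each library of Foxj1 and of the 12 members that passed the test, with KD (red circles) left of Con (blue squares) and a line at each mean. Each panel starts at 0; the groups do not overlap in any panel, and the Con points lie farther apart than the KD points in the panels of Foxj1, Rfx2, Rfx3, Rfx4, Rfx5, Dnah2, Dnah8, Dnaic1 and Dnaic2.

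The transcription factor genes of the group split in direction. Rfx4 (ENSMUSG00000020037, chromosome 10, 84756062 to 84906538, plus strand), an RFX factor of the developing brain needed for cilia there, was at 8.35 and 8.8 in the KD-labelled libraries and at 2.21 and 1.36 in the Con-labelled libraries. The groups were far apart, with a ratio of means of 4.81 (log2 change 1.80, SE 0.23, limma adjusted p = 0.00508), and Rfx4 passed under each of the 14 alternatives run. Rfx5 (chromosome 3, 94954075 to 94961561), known as an activator of MHC class II genes rather than of cilia, was at 36 and 34.4 in the KD-labelled libraries and 26.7 and 17.9 in the Con-labelled libraries (log2 change 0.66, SE 0.19, limma adjusted p = 0.0433). An antisense gene, B230398E01Rik, overlaps 26.8% of the exon bases of Rfx5, and as no source gives the strand setting of the counting, reads from either gene may be counted for the other. The log2 change of Rfx5 was 0.94 without control 1 and 0.39 without control 2, and its adjusted p in limma was 0.0623 with no filter and 0.0948 with no variance trend.

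Rfx2 and Rfx3, the RFX factors best known as partners of FOXJ1 in motile cilia, moved opposite to Foxj1. Rfx2 (ENSMUSG00000024206, chromosome 17, 56775897 to 56831013, minus strand) was at 37.8 and 38.5 in the KD-labelled libraries and at 56.7 and 61.8 in the Con-labelled libraries. It fell by 0.62 on the log2 scale (SE 0.10, limma adjusted p = 0.00935). Rfx3 (chromosome 19, 27761721 to 28011166) was at 11.2 and 9.19 in the KD-labelled libraries and 17.9 and 15.6 in the Con-labelled libraries, a fall of the same order (log2 change -0.67, SE 0.17, limma adjusted p = 0.0331). In both genes the groups were separated by more than the distance between replicates. With library size as the only scaling Rfx3 did not pass (adjusted p = 0.0654 in limma), nor with no filter (0.0547) or with DESeq2 (adjusted p = 0.0699).

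The remaining regulators gave no call. Rfx7, the RFX gene with the highest signal, was at 170.7 and 158.7 in the KD-labelled libraries and 183.3 and 179.9 in the Con-labelled libraries (limma adjusted p = 0.242). Rfx1 was at 53.6 and 57.6 in the KD-labelled libraries and 49.3 and 54.5 in the Con-labelled libraries, with overlapping groups (limma adjusted p = 0.522). Mcidas, which starts the multiciliated cell programme upstream of FOXJ1, had 1 and 1 reads in the KD-labelled libraries and 0 and 0 in the Con-labelled libraries, all under the floor of 3 reads. Rfx6, a factor of pancreatic endocrine cells, had 0 and 0 reads in the KD-labelled libraries and 0 and 2 in the Con-labelled libraries. Rfx8 had 1 and 3 reads in KD and 3 and 0 in Con.

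The promoters of the members were searched for the X-box, the element that RFX factors bind, and for forkhead heptamers. RefSeq promoters (250 bases before to 50 after each annotated start, build GRCm38.p6) matched 65 of the 78 members; no promoter was matched for Foxj1. An X-box match on either strand was found for 9 of the 65 members (13.8%), against 1.75% of the 27025 genes in the promoter table. It was found in 3 of the 8 members that rose (Dnaic1, Dnaic2 and Tekt2) and in 0 of the 4 that fell. The forkhead heptamer GTAAACA was found for 5 members (7.69%), against 4.05% of all genes, and ATAAACA for 1 (1.54%), against 5.28%; neither was found in the members that rose or fell. These are matches of letters in this window and not measured binding sites. The promoters of the 3 that rose are shown on the strand of the gene, with the X-box match in capitals, for Dnaic1 (chr4:41569544-41569843, plus strand), Dnaic2 (chr11:114727169-114727468, plus strand) and Tekt2 (chr4:126325639-126325938, minus strand).
Dnaic1: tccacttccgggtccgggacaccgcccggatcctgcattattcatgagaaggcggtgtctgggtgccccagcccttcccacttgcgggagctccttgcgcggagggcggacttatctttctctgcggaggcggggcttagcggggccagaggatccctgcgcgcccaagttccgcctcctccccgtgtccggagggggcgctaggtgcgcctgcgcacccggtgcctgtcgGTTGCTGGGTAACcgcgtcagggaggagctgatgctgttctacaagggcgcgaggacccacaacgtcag
Dnaic2: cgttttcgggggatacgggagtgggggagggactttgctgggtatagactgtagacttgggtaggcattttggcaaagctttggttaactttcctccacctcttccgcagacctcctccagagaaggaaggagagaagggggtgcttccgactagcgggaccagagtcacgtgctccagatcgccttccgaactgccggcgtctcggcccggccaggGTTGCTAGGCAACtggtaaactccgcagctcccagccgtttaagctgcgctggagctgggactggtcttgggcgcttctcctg
Tekt2: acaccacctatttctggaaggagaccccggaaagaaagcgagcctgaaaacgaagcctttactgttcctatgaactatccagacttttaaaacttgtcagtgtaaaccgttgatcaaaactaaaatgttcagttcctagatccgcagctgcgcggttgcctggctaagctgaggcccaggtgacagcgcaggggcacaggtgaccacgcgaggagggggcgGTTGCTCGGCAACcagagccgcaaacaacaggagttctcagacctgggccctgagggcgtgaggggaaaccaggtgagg

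In these promoters the first bases of the matches lie at -19 (Dnaic1), -33 (Dnaic2) and -29 (Tekt2) from the annotated start, and they match on the strand opposite to the gene. To set the letters side by side, the sites of all 9 members are shown, each 5′ to 3′ on the strand on which it matches. Cfap44, Cfap45, Dnaaf2, Rsph3b and the 2 sites of Cfap298 belong to genes that were tested and did not pass, and Cfap58 had no read in any library. All capitals belong to the match.
Dnaic1: GTTACCCAGCAAC
Dnaic2: GTTGCCTAGCAAC
Tekt2: GTTGCCGAGCAAC
Rsph3b: GTTGCCGAGCAAC
Cfap44: GTTGCCATAGCAAC
Cfap45: GTTACCATAGCAAC
Dnaaf2: GTTGCCATAGTAAC
Cfap298, upstream site: GTTGCCCGGGCAAC
Cfap298, downstream site: GTTGCCCCTGGCAAC
Cfap58: GTCGCCTGGCAAC

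Tekt2 and Rsph3b hold the same 13 letters, and Tekt2 rose while Rsph3b, at 4.53 and 2.41 in the KD-labelled libraries and 2.8 and 3.17 in the Con-labelled libraries, did not pass (limma adjusted p = 0.767). The places of the letters differ. In Rsph3b they lie after the annotated start, from 9 to 21. In Tekt2 they lie before it, from -29 to -17, or from -71 to -59 of a second annotated start. Cfap44 was at 1.15 and 1.01 in the KD-labelled libraries and 0.589 and 0.226 in the Con-labelled libraries, and Cfap45 at 1.86 and 2.49 in KD against 3.46 and 4.75 in Con. Their log2 changes were 0.58 and -0.68, and neither passed (limma adjusted p = 0.135 and 0.0783).

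Both intermediate chain genes of the outer dynein arm rose. Dnaic2 (ENSMUSG00000034706, chromosome 11, 114727408 to 114757889, plus strand) was at 15.1 and 14.8 in the KD-labelled libraries and 9.86 and 6.11 in the Con-labelled libraries. Its ratio of means was 1.87 (log2 change 0.86, SE 0.23, limma adjusted p = 0.0356). Dnaic1 (ENSMUSG00000061322, chromosome 4, 41569775 to 41638158, plus strand) was at 5.77 and 5.53 in the KD-labelled libraries and 3.46 and 2.49 in the Con-labelled libraries, a ratio of 1.9 (log2 change 0.75, SE 0.21, limma adjusted p = 0.0448). In each gene the groups were apart and the lower control was control 2. The log2 change of Dnaic2 was 1.17 without control 1 and 0.55 without control 2, and that of Dnaic1 0.93 and 0.58. Dnaic1 did not pass with DESeq2 (adjusted p = 0.207) or with no filter in limma (0.0915), nor Dnaic2 with no filter (0.0601) or no variance trend (0.068).

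The dynein heavy chains, the motors of the arms, moved both ways. Dnah10 (ENSMUSG00000038011, chromosome 5, 124725085 to 124834308, plus strand), an inner arm heavy chain, was at 5.33 and 6.77 in the KD-labelled libraries and 2.36 and 2.49 in the Con-labelled libraries. It rose with a ratio of means of 2.5 (log2 change 1.04, SE 0.21, limma adjusted p = 0.017). Dnah2 (ENSMUSG00000005237, chromosome 11, 69420809 to 69549110, minus strand), another inner arm heavy chain, was at 17.8 and 16.2 in the KD-labelled libraries and 10.7 and 6.56 in the Con-labelled libraries. It rose with a ratio of means of 1.97 (log2 change 0.93, SE 0.23, limma adjusted p = 0.0293), and the log2 change was 1.25 without control 1 and 0.62 without control 2; it did not pass without a variance trend (limma adjusted p = 0.062). Its antisense RNA Dnah2os, which shares 2.08% of the exon bases of Dnah2 and 36.3% of its own with that gene, was at 4 and 3.11 in the KD-labelled libraries and 3.39 and 0.905 in the Con-labelled libraries, with overlapping groups (limma adjusted p = 0.257).

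Dnah8 went the other way. Dnah8 (ENSMUSG00000033826, chromosome 17, 30624354 to 30877365, plus strand), an outer arm heavy chain of the sperm flagellum, was at 24.7 and 23 in the KD-labelled libraries and 52.3 and 37.3 in the Con-labelled libraries. The groups did not overlap (log2 change -0.86, SE 0.17, limma adjusted p = 0.0149); the log2 change was -0.63 without control 1 and -1.10 without control 2. Dnah17, the other outer arm heavy chain known mainly from sperm, was at 26.6 and 24.9 in the KD-labelled libraries and 24.1 and 23.1 in the Con-labelled libraries (log2 change 0.12, limma adjusted p = 0.496).

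Dnah5 and Dnah9, outer arm heavy chains of motile cilia in epithelia, were close to the floor. Dnah5 had 7 and 9 reads in the KD-labelled libraries and 9 and 3 in the Con-labelled libraries. The ratio was 0.996, with a 95% exact interval from 0.442 to 2.31 that covers counting error only. Dnah9 had 1 and 1 reads in the KD-labelled libraries and 0 and 1 in the Con-labelled libraries. A difference in these partners of the same arm was not detectable at this depth. Dnah11, the heavy chain of the proximal outer arm, was at 13.3 and 10.8 in the KD-labelled libraries and 12.3 and 12.2 in the Con-labelled libraries, with overlapping groups (limma adjusted p = 0.922). Of the inner arm chains, Dnah1 (limma adjusted p = 0.406) and Dnah6 (limma adjusted p = 0.196) did not pass, and Dnah3, Dnah7b and Dnah12 had too few reads to be tested. Dnah7b has near-identical copies in the mouse genome, so its reads are uncertain.

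Among the dynein arm assembly factors, 1 of 5 rose and 0 fell, where 10.5% of all genes tested rose and 12.4% fell. Dnaaf3 (ENSMUSG00000055809, chromosome 7, 4522933 to 4532453, minus strand) was at 15.1 and 16.7 in the KD-labelled libraries and 7.65 and 8.15 in the Con-labelled libraries. The replicates of each group lay close together, and the ratio of means was 2.01 (log2 change 0.92, SE 0.16, limma adjusted p = 0.0111). The neighbouring gene Tnni3, a heart troponin gene that shares 3.87% of the exon bases of Dnaaf3 on the same strand, was also higher, at 5.24 and 5.3 in the KD-labelled libraries and 2.28 and 2.49 in the Con-labelled libraries (log2 change 0.89, limma adjusted p = 0.0225). The antisense gene Gm15873 overlaps 12.6% of the exon bases of Dnaaf3 and stood at 0.905 to 1.64 in the 4 libraries. The remaining 4 factors did not pass. Dnaaf5 was at 68.4 and 69.5 in the KD-labelled libraries and 61.8 and 69.7 in the Con-labelled libraries (limma adjusted p = 0.643). Dnaaf2 was at 66.3 and 59.8 in the KD-labelled libraries and 68.6 and 67.7 in the Con-labelled libraries (limma adjusted p = 0.431). Both had overlapping groups or a gap smaller than the spread of the KD-labelled libraries. Dnaaf1 (limma adjusted p = 0.82) and Dnaaf4 (limma adjusted p = 0.398) stood lower, with 59.2% of the exon bases of Dnaaf4 shared with the overlapping gene Gm44503, which had no read. Taf1c, on the opposite strand at 33.6 to 41.9 in the 4 libraries, overlaps 20.7% of the exon bases of Dnaaf1. With the strand setting of the counting unknown, its reads may be counted for Dnaaf1. Dnaaf2 shares 22.3% with Gm49383 and 20.6% with Gm49384 on the same strand, and 32.7% with 9330151L19Rik on the opposite strand.

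Of the tektins, filament proteins inside the doublet microtubules, Tekt2 rose. Tekt2 (ENSMUSG00000028845, chromosome 4, 126322121 to 126325688, minus strand) was at 4.17 and 5.45 in the KD-labelled libraries and 2.28 and 1.13 in the Con-labelled libraries, a ratio of means of 2.82 (log2 change 1.13, SE 0.27, limma adjusted p = 0.0293). The transcript Gm12945 overlaps 20.8% of its exon bases on the opposite strand and stood at 0.453 to 1.32 in the 4 libraries. The log2 change of Tekt2 was 1.44 without control 1 and 0.82 without control 2, and its adjusted p was 0.0529 with no filter and 0.0515 with no variance trend in limma, and 0.0764 in DESeq2. Tekt1 was at 4.71 and 6.38 in the KD-labelled libraries and 5.45 and 4.07 in the Con-labelled libraries, with overlapping groups (limma adjusted p = 0.596). Tekt5 counted 7 and 5 reads in KD against 1 and 0 in Con; the ratio was 8.96, with a 95% exact interval from 1.33 to 383. It rests on 1 control read, and Tekt5 did not pass in the authors' deposited table (adjusted p = 0.0692). Tekt3 and Tekt4 had none in any library.

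Of 3 radial spoke and 3 nexin-dynein regulatory complex genes tested, limma and edgeR called 0. At an unadjusted limma p below 0.05 there were 0 spoke genes and 1 complex gene, Drc7. Over all 14890 genes tested there were 5773. Rsph1, of the spoke head, was at 4.44 and 4.91 in the KD-labelled libraries and 5.15 and 4.98 in the Con-labelled libraries (limma adjusted p = 0.741). Rsph4a, also of the spoke head, had overlapping groups (limma adjusted p = 0.773), and Rsph9 had 6 and 11 reads in the KD-labelled libraries and 12 and 3 in the Con-labelled libraries. Rsph10b, named after its values were seen, had 5 and 9 reads in the KD-labelled libraries and 0 and 0 in the Con-labelled libraries. With the control group set to a floor of 3 reads the ratio was 3.49, which leaves out counting error in the KD reads. Rsph10b was too low for the fit, and it passed in the authors' deposited table (adjusted p = 0.00913). Rsph3a, a near copy of Rsph3b, had no read, so the split of reads between that pair is uncertain. Drc7 was at 4.88 and 5.92 in the KD-labelled libraries and 3.68 and 1.81 in the Con-labelled libraries (log2 change 0.81, SE 0.28), and did not pass (limma adjusted p = 0.0779). Drc3 was at 4.44 and 5.22 in the KD-labelled libraries and 6.7 and 5.88 in the Con-labelled libraries (limma adjusted p = 0.263).

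The largest family, the cilia and flagella associated proteins, showed no common direction among its tested rows. Of 31 Cfap rows 15 were tested, 0 rose, 1 fell and 14 did not pass, with a median log2 change of -0.06. The shares over all genes tested were 10.5% that rose and 12.4% that fell. The other 16 rows had too few reads to be tested, so the direction of the whole family is not known. The count at an unadjusted limma p below 0.05 was 5 of the 15, where 5773 of all 14890 genes tested had such a p. edgeR called 1, the same gene as limma. That gene was Cfap36 (ENSMUSG00000020462, chromosome 11, 29221532 to 29247409, minus strand), a partner of the ciliary GTPase ARL3, at 20.7 and 17.8 in the KD-labelled libraries and 27.4 and 29.9 in the Con-labelled libraries (log2 change -0.55, SE 0.14, limma adjusted p = 0.0308). It did not pass with library size as the only scaling (adjusted p = 0.0614 in limma), without a variance trend (0.0558) or with DESeq2 (adjusted p = 0.0762). Cfap20, an inner junction protein of the doublets, was at 64.8 and 60.3 in the KD-labelled libraries and 69.1 and 62.2 in the Con-labelled libraries (limma adjusted p = 0.658). Cfap97 was at 39.1 and 42.4 in the KD-labelled libraries and 47.6 and 46.8 in the Con-labelled libraries, the groups apart but the difference small (limma adjusted p = 0.178). Cfap126, known as Flattop, which places basal bodies in multiciliated and inner ear cells, was at 2.22 and 1.56 in the KD-labelled libraries and 0.589 and 1.13 in the Con-labelled libraries (limma adjusted p = 0.118), and passed in the authors' deposited table (adjusted p = 0.03).

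The 33 members with too few reads to be tested held 106 and 137 reads together in the KD-labelled libraries and 121 and 23 in the Con-labelled libraries. Their summed signal was 9.41 and 10.7 in the KD-labelled libraries and 8.91 and 5.21 in the Con-labelled libraries. The 44 tested members other than Foxj1 summed to 830.4 and 799 in the KD-labelled libraries and 864.7 and 820.7 in the Con-labelled libraries, with overlapping groups. Scaled by library size only (RPM of the recovered reads), the sums were 878.5 and 854.4 in the KD-labelled libraries and 858.7 and 787.8 in the Con-labelled libraries, also overlapping. Rfx7 alone gave 158.7 to 183.3 of the signal. In all, 6 members had no read in any library: Cfap58, Cfap97d1, Cfap299, Rsph3a, Tekt3 and Tekt4. Cfap47, named after its values were seen, had 5 and 3 reads in the KD-labelled libraries and 0 and 0 in the Con-labelled libraries. With the control group set to a floor of 3 reads the ratio was 1.99, which leaves out counting error in the KD reads. Cfap47 did not pass in the authors' deposited table (adjusted p = 0.0543).

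Levels between genes were compared as signal per kilobase of exon. Over the mean of the 4 libraries the highest members were Cfap298 (23 per kilobase), Dnaaf2 (19.4), Dnaaf5 (19.2), Cfap20 (14.4) and Rfx7 (11.3), and none of the 5 passed the test. Foxj1 ranked 5 and 4 of the 78 in the KD-labelled libraries and 10 and 16 in the Con-labelled libraries, with 13.3 and 15.1 per kilobase in the KD-labelled libraries and 6.37 and 2.16 in the Con-labelled libraries. Dnaaf3, the highest of the axoneme genes that rose, had 6.79 and 7.49 per kilobase in the KD-labelled libraries and 3.44 and 3.66 in the Con-labelled libraries, below Foxj1 except in control 2. Dnaic2 had 3.3 and 3.24 in KD against 2.16 and 1.34 in Con. The median signal per gene of the 44 members was 5.24, against 25.5 for all genes tested.

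Other genes of the ciliary pathway were examined in 5 lists that leave out the members. Of 160 tested, 12 rose and 13 fell, shares of 7.5% and 8.12% that lie below the 10.5% and 12.4% of all genes. Among the multiciliation regulators, 2 of 11 rose and 1 fell (median log2 change -0.02). Trp73, which encodes a factor upstream of Foxj1 in multiciliated cells, was at 36 and 43.3 in the KD-labelled libraries and 20.2 and 11.5 in the Con-labelled libraries (log2 change 1.31, SE 0.24, limma adjusted p = 0.0133). Ccno, which acts in the massive centriole duplication of these cells, was at 3.91 and 5.61 in the KD-labelled libraries and 0.883 and 1.58 in the Con-labelled libraries (log2 change 1.37, SE 0.26, limma adjusted p = 0.0147). E2f4, a partner of Mcidas and a general cell cycle factor, fell (log2 change -0.53, limma adjusted p = 0.0304), and Gmnc and Cdc20b had no read in any library. Ulk4, at 108.6 to 126.2 in the 4 libraries, did not pass (limma adjusted p = 0.28).

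Of 50 further axoneme and motility genes tested, 2 rose (4%) and 5 fell (10%), with a median log2 change of -0.03. The shares over all genes tested were 10.5% and 12.4%. Ttll6, a tubulin polyglutamylase, was at 30.6 and 31.1 in the KD-labelled libraries and 15.8 and 9.28 in the Con-labelled libraries (limma adjusted p = 0.0118). Ttc25, of the outer arm docking complex, was at 7.72 and 9.34 in the KD-labelled libraries and 3.61 and 3.39 in the Con-labelled libraries (limma adjusted p = 0.0123). Catip and Ttc29, a gene of the sperm flagellum, fell (log2 changes -1.32 and -1.23, limma adjusted p = 0.00821 and 0.0127). The remaining 3 that fell were Lrrc34, Ribc1 and the chaperone gene Ruvbl1, named after their values were seen, and the cilia-enriched tubulin gene Tubb4b did not pass (limma adjusted p = 0.146).

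Genes that build cilia of any kind showed few calls. Of all genes tested, 10.5% rose and 12.4% fell. These shares were 2.27% and 9.09% for intraflagellar transport and the BBSome, and 4.35% and 4.35% for the basal body and transition zone. Of 44 genes of intraflagellar transport and the BBSome, 1 rose (Wdr60, a dynein-2 chain, log2 change 0.90, limma adjusted p = 0.0115) and 4 fell (median -0.11). The 4 were Tulp3 (log2 change -0.94), Kifap3 (-0.47), Arl6 (-0.59) and Ift46 (-0.43), with limma adjusted p values from 0.00398 to 0.0328; Wdr35 did not pass (limma adjusted p = 0.0828). Of 46 basal body and transition zone genes, 2 rose (Tctn1 and Fbf1) and 2 fell (Ofd1 and Sass6), with limma adjusted p values from 0.0247 to 0.0459, and Odf2 did not pass (limma adjusted p = 0.0661).

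Of 9 node and left-right genes tested, 5 rose and 1 fell, with a median log2 change of 0.47; 1 rose without KD library 2, and 1 without a variance trend. Over all genes tested, 10.5% rose and 12.4% fell. Nodal was at 129.9 and 150 in the KD-labelled libraries and 99.4 and 78.5 in the Con-labelled libraries (log2 change 0.65, limma adjusted p = 0.0164). Of the antagonists of NODAL, Lefty1 was at 73.9 and 95.9 in the KD-labelled libraries and 54.8 and 34.4 in the Con-labelled libraries (limma adjusted p = 0.026), and Lefty2 at 33.2 and 34.1 in the KD-labelled libraries and 78 and 47.3 in the Con-labelled libraries (limma adjusted p = 0.0331). Galnt11 and Pkd2 also rose (limma adjusted p = 0.0356 and 0.0373; named after their values were seen), and Bicc1 did not pass (limma adjusted p = 0.13). NODAL signalling genes also act in embryonic stem cells.

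**Figure D3:**
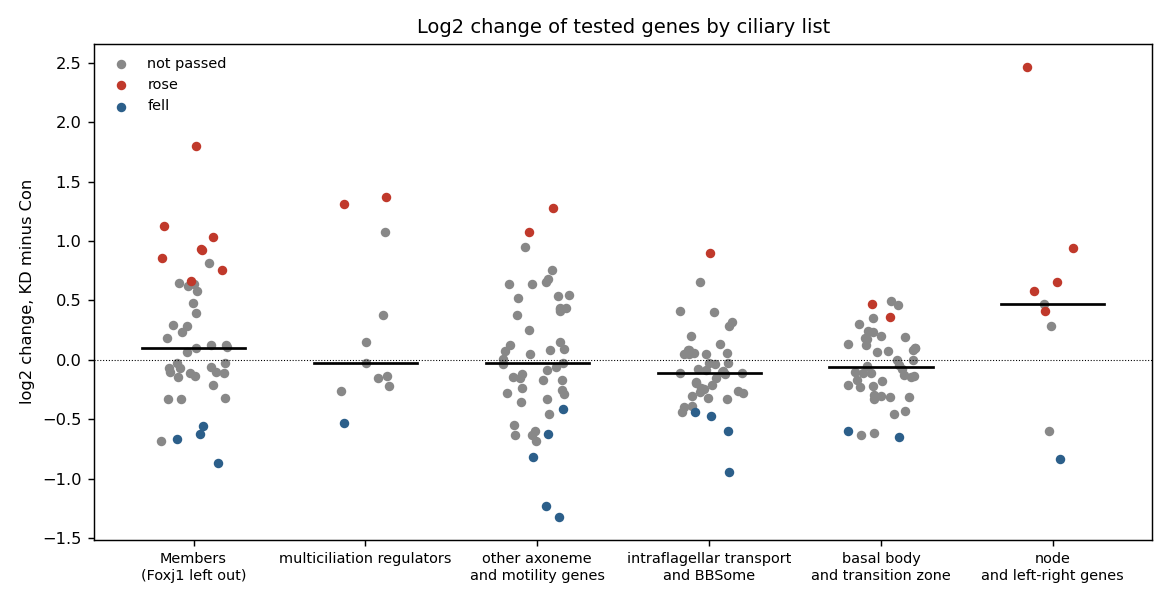
Log2 change (KD minus Con) of every tested gene among the members, Foxj1 left out, and in the 5 other ciliary lists; the line is the median of each set. Red genes rose and blue genes fell in limma; the medians run from -0.11 (intraflagellar transport and BBSome) to 0.47 (node and left-right genes).

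Markers of other cells that use these genes were read beside the members. Over all 14890 genes tested, 10.5% rose, 12.4% fell and 5773 had an unadjusted limma p below 0.05. Of 14 markers of multiciliated epithelium other than general epithelial genes, 4 (Sntn, Dynlrb2, Tmem212 and 1110017D15Rik) had no read in any library, and the summed signal of the 14 was 44 and 45.2 in the KD-labelled libraries and 47.8 and 30.6 in the Con-labelled libraries. The 5 general epithelial genes, among them Cdh1 and Epcam, which embryonic stem cells also express, summed to 653.5 and 703.4 in the KD-labelled libraries and 461.2 and 401 in the Con-labelled libraries. These 5 were split off from the multiciliated list after their values were seen. The whole list of 19 summed to 697.6 and 748.6 in the KD-labelled libraries and 509 and 431.5 in the Con-labelled libraries. Of its 9 tested genes, 1 rose and 1 fell, with a median log2 change of 0.38. Spermatid markers summed to 14.5 and 14.2 in the KD-labelled libraries and 11 and 11.8 in the Con-labelled libraries, with 8 of 24 at 0 in every library, Prm2, Tnp1 and Akap4 among them. Markers of spermatogonia and spermatocytes summed to 200 and 193.6 in the KD-labelled libraries and 163.9 and 137.1 in the Con-labelled libraries, and 6 of 16 rose and 1 fell. Fibroblast markers summed to 525.5 and 575.8 in the KD-labelled libraries and 415.1 and 394.9 in the Con-labelled libraries, 4 of 10 rose, and Dcn, Lum and S100a4 had no read in any library. Markers of the node and notochord summed to 27 and 24.5 in the KD-labelled libraries and 18.6 and 19 in the Con-labelled libraries, with 0 of 4 called by limma and 1 with an unadjusted p below 0.05. Their part in the changes of the members was not tested.

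The GC content of the transcripts moved with the direction of change. Over all genes tested, the share that rose was 4.26% and the share that fell 19.3% among the 20% with the lowest GC; at the other end of the range, the 20% with the highest GC, these shares were 19% and 6.18%. Of the members other than Foxj1, 6 and 9 lay in the lowest and second lowest 20% of genes, and 0 of them rose and 3 fell (Rfx3, Cfap36 and Dnah8). In the second lowest 20%, 6.48% of all genes rose and 16.1% fell. Of 10 members in the middle 20%, 3 rose and 0 fell, where 8.63% and 11.7% of all genes did. Of 15 in the second highest 20%, 4 rose and 1 fell (Rfx2), where the shares were 14.2% and 8.83%. In the highest 20%, 1 of 4 rose and 0 fell. The 8 that rose had GC contents of 49.6% to 58.1% in their longest transcript, and Foxj1 had 61.4%. The median GC of the 44 members was 51.7%, against 50.3% for all genes tested. The part of GC content in the changes of the members was not tested.

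**Figure D4:**
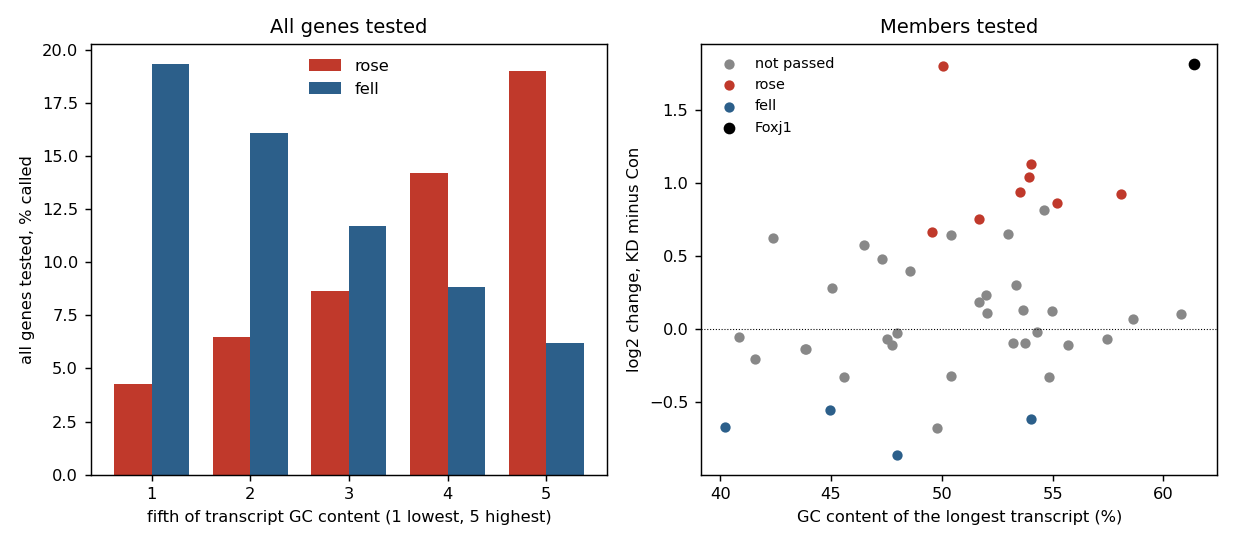
Left, percent of all genes tested that rose (red) or fell (blue) in 5 equal bins of transcript GC content; right, log2 change (KD minus Con) of each tested member against the GC content of its longest transcript. The share that rose runs from 4.26% to 19% over the bins, and the members that rose lie at 49.6% GC or above.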

How the data were processed

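Poly(A) RNA-seq (single-end reads) of 4 mouse embryonic stem cell samples was analysed. Per the submitters' processing notes, reads were handled with HTSeq 0.11.2, Bowtie2 2.3.4.3, edgeR 3.26.8 and SAMtools 1.9 (no order or role is given) and the mouse build was mm9. The deposited signal of each library is a gene count divided by an effective library size, and 100% of its values were whole reads within a tolerance of 0.001. The authors also deposited, per the file headers, a log2 fold change, a log2 mean CPM, a p-value, an adjusted p-value and a likelihood-ratio score for each gene; only the fold change and adjusted p-value were used.

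The test was limma 3.58.1 (R 4.3.3) on log2(signal + 1) with a variance trend, on genes that passed the edgeR filter on low reads, with Benjamini-Hochberg adjustment over all 14890 genes. A pseudocount of 1 understates the change of low genes. The procedure was tested on simulated data. The simulation gave both groups the same spread, and the data did not have it. The median absolute log2 difference was 0.198 between the controls and 0.0955 between the KD libraries. edgeR 4.0.16 and DESeq2 1.42.0 on the recovered reads, other scalings, pseudocounts and filters, a replicate block and leaving out each library were alternatives. The same-number deviations correlated at 0.0356. That value gives no sign of pairing by replicate number, but it cannot show that same-numbered libraries were handled apart.

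The members and lists were chosen with earlier results of these data known. Named were Foxj1, Mcidas, the Rfx genes, every called member, and in each family the 2 members with the highest signal and the 2 with the largest change; in the other lists, up to 4 called genes with the smallest p and the highest gene not called. Any other named gene (Cfap44, Cfap298, Dnah1, Dnah5, Dnah6, Dnah9, Dnah11, Dnaaf1 and Rsph9 among them) was chosen after its values were seen. Coordinates are those of GENCODE M21 on GRCm38, not converted from mm9. The floors and exact intervals reflect only counting error, as reads are not independent molecules. One gene of the node and left-right list that the rule would name is not reported here.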

Additional observations from a re-analysis of the deposited data

How the results depend on the processing

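With 2 libraries a group the counts moved most when a library was left out: members that rose ranged from 1 to 15 (8 with all libraries), members that fell from 0 to 6 (4 with all), other ciliary genes that rose from 3 to 38 (12 with all) and those that fell from 3 to 40 (13 with all). Without a variance trend 4 members and 7 other ciliary genes rose, and 7 other ciliary genes fell. With library size as the only scaling 2 members and 6 other ciliary genes fell, and that scaling put the median log2 change of all genes at 0.10, against -0.01. DESeq2 on recovered reads called 2 members lower. The replicate block gave 10 members higher and 5 lower, and 19 other ciliary genes higher and 18 lower. No label states whether the replicate numbers pair the libraries. Of the 12 called members, 5 were lost with no filter, 5 without a trend, 4 with DESeq2 and 2 with library size only, and 0 with edgeR, TMM, DESeq2 size factors or another pseudocount. Single genes were recomputed for the 29 named members that were tested, Foxj1 included, and not for the others. Of these, the sign turned for 7, none of them called: Cfap20 (0.054 with library size only, and 0.007 to -0.142 with a library left out), Dnaaf2 (0.01 with library size only), Dnaaf5 (-0.016 to 0.154 with a library left out), Rsph1 (0.005 with library size only), Rsph3b (-0.221 to 0.475 with a library left out), Rsph4a (-0.45 to 0.178 with a library left out) and Tekt1 (-0.003 to 0.369 with a library left out). The causes were not tested. Control 2, with 4604200 reads, limits the low members: 3 reads there are a signal of 0.679.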
